A study of Homo sapiens with 18 samples.

Results

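SEMA3D, ZBTB18, KCNK2, CCDC102B and RTKN2 were expressed in OVCAR3-KRAB cells with a control guide and were near absent in both XIST knockdown (KD) clones. These 5 genes, of 28277 in the count table, were chosen by their normoxia counts, high with sgCtl and near 0 with sgXIST7 and sgXIST9, so their normoxia levels are a description and were given no test. OVCAR3 is a cell line from an ovarian carcinoma, and OVCAR3-KRAB cells carry dCas9-KRAB, a catalytically dead Cas9 fused to a repressor domain that silences the promoter a guide RNA leads it to. All cells, controls included, carried this transgene, delivered by lentivirus, and a guide. sgCtl targets the Gal4 promoter, and sgXIST7 and sgXIST9 target different stretches of the promoter of XIST, the long noncoding RNA that coats the inactive X chromosome. Clonal cells of each guide were grown in normoxia or exposed to 1% oxygen over 24 h (hypoxia), which gave 6 groups of 3 replicates and 18 libraries. The sgCtl cells, like the KD cells, were clonal, so the guide and the clone that carried it cannot be told apart. A gene lost in the KD clones and a gene particular to the sgCtl cells also cannot be told apart. The p-values measure only the spread between replicate libraries of a clone. In bulk RNA, fewer cells that express a gene and less RNA per cell cannot be told apart.

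The genes belong to different families. SEMA3D is a secreted class 3 semaphorin, a guidance cue that signals through neuropilin and plexin receptors. KCNK2, also called TREK, is a potassium channel of the tandem-pore K2P family that opens to membrane stretch, heat and lipids. ZBTB18 is a zinc finger repressor of transcription that acts in neuronal and muscle differentiation, with the ID genes among its known targets. CCDC102B is a coiled-coil protein of the linker that holds centrosomes together, and RTKN2 belongs to the rhotekin family.

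The libraries held between 11794375 and 24906936 gene counts. XIST, the targeted gene, was counted 4900, 11209 and 4213 times in the sgCtl normoxia libraries, 5, 4 and 1 times with sgXIST7 and 650, 1009 and 898 times with sgXIST9. In hypoxia it was counted 1974, 5014 and 1589 times with sgCtl, 0, 2 and 3 times with sgXIST7 and 357, 472 and 510 times with sgXIST9. XIST was therefore lower in every KD library, with 9.76% of the sgCtl level left with sgXIST9 in normoxia and 0.0347% with sgXIST7. Of 8 genes listed as markers of ovarian carcinoma epithelium, EPCAM and KRT18 had group means of 160 to 243 and 140 to 219 counts per 1e+06 (CPM), while MUC16, KRT7 and CDH1 had group means of at most 0.0757, 0.0618 and 0.0374 CPM, so several defining markers of the labelled line were at or near 0. WT1 stayed at or below 0.461 CPM and PAX8 at 1.51 to 4.55 CPM in the group means. COL3A1 had group means of 523 to 1018 CPM, whereas DCN, LUM and PDGFRA were at most 1.56, 0.356 and 0.400 CPM, and the leukocyte and endothelial markers summed to at most 0.410 and 0.684 CPM in a library. Among 6 hypoxia genes, PDK1 was at 37.9 ± 2.62 CPM in sgCtl normoxia and 419 ± 54.4 CPM in sgCtl hypoxia (SD, n = 3). PDK1, CA9, VEGFA and NDRG1 had higher means in hypoxia with each guide. ADM overlapped in sgCtl, at 287 ± 33.3 and 324 ± 56.7 CPM, and was higher in hypoxia in both KD clones. EGLN3 had a lower mean in hypoxia with sgXIST7 (1.54 ± 0.272 to 0.997 ± 0.441 CPM) and higher means with sgCtl and sgXIST9. The 6 genes summed to 341 to 404 CPM in sgCtl normoxia libraries and 70.2 to 109 CPM in KD normoxia libraries. In hypoxia they summed to 463 to 1146 CPM. ADM alone made the normoxia gap, at 287 CPM with sgCtl and 8.14 and 7.0 CPM in the KD clones, and the other 5 genes summed to 75.9 to 79.1 CPM with sgCtl and 63.2 to 98.9 CPM in the KD normoxia libraries. KRT8, a keratin of simple epithelia, also differed with the guide, at group means of 9.13 and 4.41 CPM with sgCtl and 19.4 to 34.7 CPM in the KD clones. The part of these differences in the results that follow was not tested. Replicate 3 of sgCtl hypoxia and of sgXIST9 hypoxia stood apart from replicates 1 and 2 in a principal component analysis. The sgXIST7 hypoxia replicates were spread, with replicate 3 at 50.6 on the third component and replicates 1 and 2 at 19.9 and 34.1.

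The 5 genes lie on 4 chromosomes. In the hg38 coordinates of the count table, KCNK2 spans chr1:215005542-215237090 and ZBTB18 chr1:244048939-244057478, both on the plus strand. CCDC102B spans chr18:68715216-69055189 on the plus strand, RTKN2 chr10:62193086-62268844 and SEMA3D chr7:84995556-85121931 on the minus strand. All are protein-coding in GENCODE release 44. Counts of CCDC102B were taken over 2957 bases of exon and those of RTKN2 over 8377. A processed pseudogene, HSPA8P16, lies inside SEMA3D on the other strand, and 7 noncoding or pseudogene entries lie inside CCDC102B. The strand setting of the counting is not given in the sources used here, so reads of overlapping antisense entries cannot be told apart from those of SEMA3D and CCDC102B.

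The promoter windows show what the genes do and do not share in sequence. RefSeq (GRCh38.p14) gives 9 start windows of 300 bases for the 5 genes, each from 250 bases before a start site to 50 after it, and the window nearest to the gene start of the count table is printed 5′ to 3′ for each gene. Capitals mark matches on either strand to the motifs searched. GCGTG is one core of the element that hypoxia-inducible factors bind, and ACGTG is the other. The letters CAGATG are an E-box form of the kind ZBTB18 binds. A further E-box, bound by other zinc finger repressors, is CACCTG. The KCNK2 window is chr1:215005292-215005591 on the plus strand, the ZBTB18 window chr1:244048403-244048702 on the plus strand and the CCDC102B window chr18:68714966-68715265 on the plus strand. The RTKN2 window is chr10:62268795-62269094 and the SEMA3D window chr7:85187007-85187306, both on the minus strand, and the SEMA3D start lies 65125 bases before the gene start in the count table.
KCNK2: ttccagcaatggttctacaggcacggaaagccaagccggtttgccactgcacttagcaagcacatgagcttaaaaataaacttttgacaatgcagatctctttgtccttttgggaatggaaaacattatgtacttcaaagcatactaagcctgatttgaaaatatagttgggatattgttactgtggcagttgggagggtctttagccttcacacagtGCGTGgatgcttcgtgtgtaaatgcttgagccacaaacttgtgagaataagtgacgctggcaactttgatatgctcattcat
ZBTB18: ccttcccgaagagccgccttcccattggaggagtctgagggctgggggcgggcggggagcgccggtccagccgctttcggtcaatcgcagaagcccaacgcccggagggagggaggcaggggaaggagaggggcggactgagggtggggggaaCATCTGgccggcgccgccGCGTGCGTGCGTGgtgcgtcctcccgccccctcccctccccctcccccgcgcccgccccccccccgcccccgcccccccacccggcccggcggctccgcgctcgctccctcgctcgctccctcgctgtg
CCDC102B: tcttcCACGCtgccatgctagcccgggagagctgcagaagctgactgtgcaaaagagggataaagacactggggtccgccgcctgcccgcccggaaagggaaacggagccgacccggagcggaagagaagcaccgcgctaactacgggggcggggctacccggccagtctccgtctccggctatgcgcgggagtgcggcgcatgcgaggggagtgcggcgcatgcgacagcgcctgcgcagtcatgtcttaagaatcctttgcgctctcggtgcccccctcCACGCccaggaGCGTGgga
RTKN2: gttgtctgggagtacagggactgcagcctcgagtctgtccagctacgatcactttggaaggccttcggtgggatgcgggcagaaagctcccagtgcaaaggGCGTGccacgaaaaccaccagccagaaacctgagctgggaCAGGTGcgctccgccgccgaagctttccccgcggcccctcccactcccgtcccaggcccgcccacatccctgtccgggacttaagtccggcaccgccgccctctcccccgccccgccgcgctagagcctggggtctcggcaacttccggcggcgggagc
SEMA3D: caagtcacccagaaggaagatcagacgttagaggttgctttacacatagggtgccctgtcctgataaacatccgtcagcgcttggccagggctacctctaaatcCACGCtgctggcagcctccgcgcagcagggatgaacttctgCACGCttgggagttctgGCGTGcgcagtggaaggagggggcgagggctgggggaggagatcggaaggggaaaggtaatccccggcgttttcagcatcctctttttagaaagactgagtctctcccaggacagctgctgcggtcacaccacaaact

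GC content of the printed windows ran from 42.0% for KCNK2 through 57.0% for SEMA3D, 66.7% for CCDC102B and 68.0% for RTKN2 to 77.7% for ZBTB18, against a median of 58.7% over 35116 windows. The observed to expected CpG ratio was 0.38 for KCNK2, 0.58 for SEMA3D, 0.76 for RTKN2, 0.78 for ZBTB18 and 0.93 for CCDC102B, with a median of 0.58 over all windows. The printed windows therefore did not share one promoter type by these measures, with that of KCNK2 poor in CpG and those of CCDC102B and ZBTB18 rich in it. This depends on the window, since the other KCNK2 window had 64.7% GC and a ratio of 0.63. The other windows had ratios of 0.18 for CCDC102B and 0.08 and 0.0 for ZBTB18. Which start these cells used was not tested. GCGTG or its reverse complement was in 5 of the 5 printed windows and in 6 of all 9, and 36.5% of all windows hold it. ACGTG was in 0 of the 9, with 21.4% of all windows holding it. CAGATG was in the ZBTB18 window (14.7% of all windows) and CACCTG in the RTKN2 window (20.6% of all windows). No motif contains another, though matches may overlap at their ends.

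In sgCtl normoxia the genes were well expressed, and in the KD clones few counts remained, at most 34 in a library. SEMA3D had 1499, 1398 and 1725 counts with sgCtl, 1, 0 and 1 with sgXIST7, and 0, 0 and 1 with sgXIST9. ZBTB18 had 2062, 1743 and 2464 counts with sgCtl, 1, 1 and 3 with sgXIST7, and 0, 2 and 2 with sgXIST9. KCNK2 had 3091, 2656 and 3791 counts with sgCtl, 3, 3 and 4 with sgXIST7, and 2, 6 and 0 with sgXIST9. No KD library of these 3 genes held more than 6 counts, while every sgCtl library held over 1000. CCDC102B had 2006, 1951 and 2626 counts with sgCtl, 14, 7 and 10 with sgXIST7, and 9, 7 and 9 with sgXIST9. RTKN2, the least abundant, had 603, 577 and 677 counts with sgCtl, 15, 25 and 34 with sgXIST7, and 0, 1 and 0 with sgXIST9. CCDC102B thus left a few counts in every KD library, and RTKN2 was the gene whose clones differed, with more counts in each sgXIST7 library than in any sgXIST9 library.

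On the CPM scale, scaled by TMM (trimmed mean of M-values), the sgCtl normoxia levels were 210 ± 6.55 for KCNK2, 145 ± 9.38 for CCDC102B, 138 ± 3.32 for ZBTB18, 103 ± 4.87 for SEMA3D and 41.3 ± 2.98 for RTKN2 (SD, n = 3). Levels of different genes compare only per length. Per kilobase of exon, CCDC102B (49.2 ± 3.17 CPM per kb) and KCNK2 (49.0 ± 1.53) did not differ beyond their SDs. ZBTB18 (30.6 ± 0.735), SEMA3D (16.4 ± 0.779) and RTKN2 (4.93 ± 0.355) followed in that order, each separated from its neighbour by more than the SDs.

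**Figure D1:**
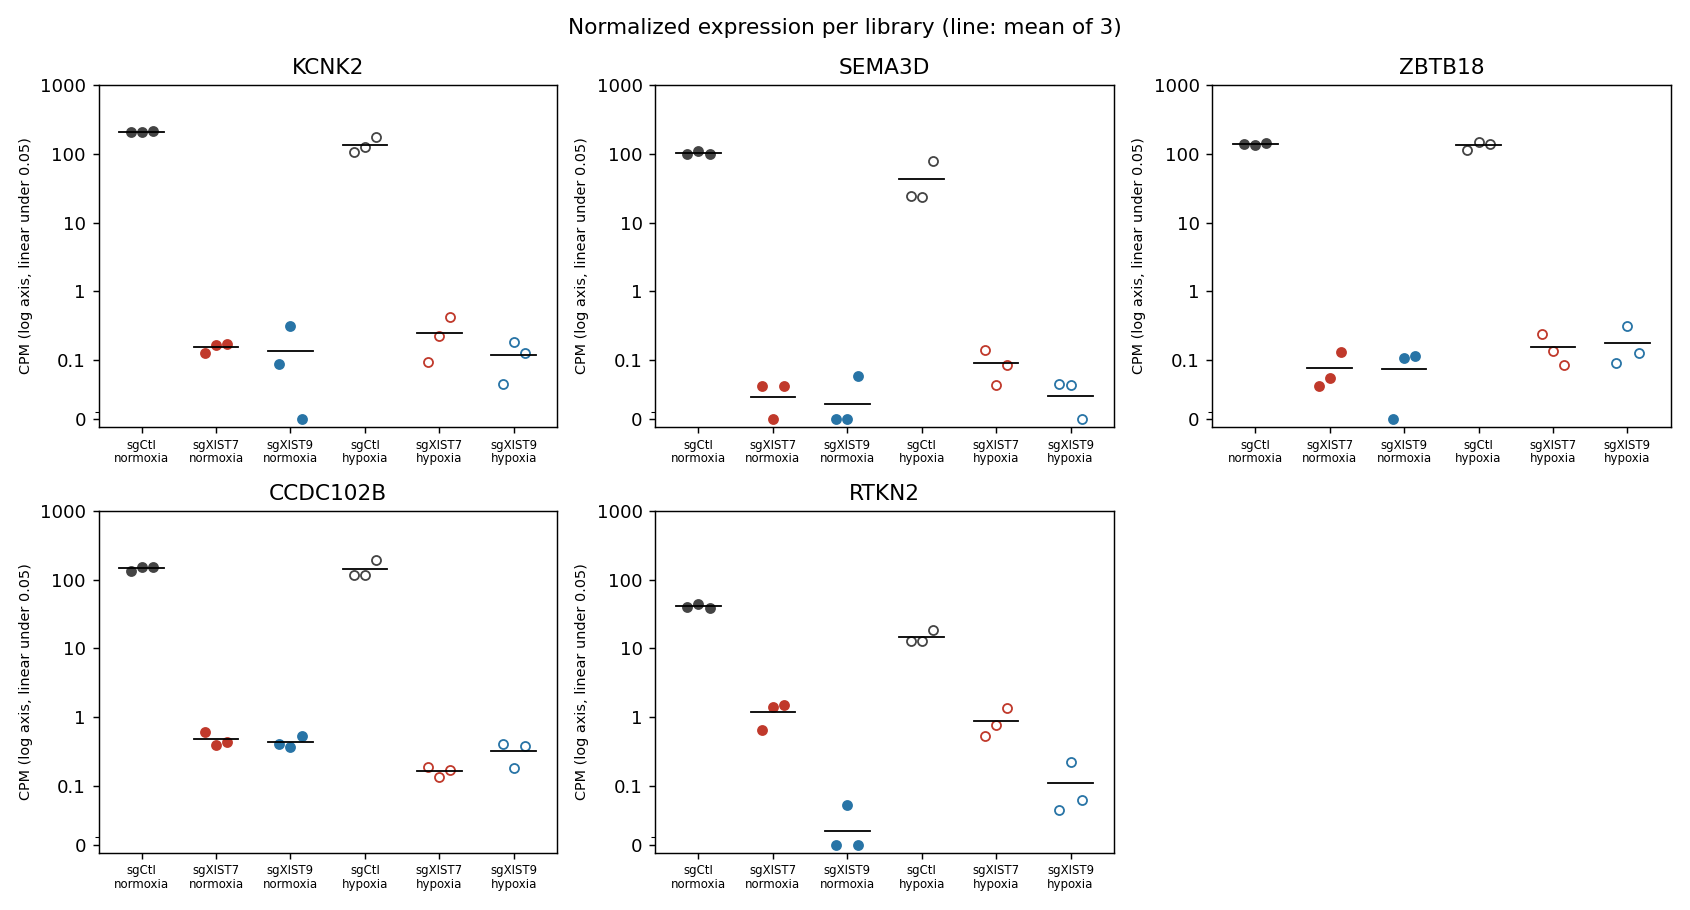
Each panel plots one gene, with CPM per library on a log axis that is linear under 0.05 and the 6 guide-by-oxygen groups along the x axis. Points are libraries and lines are means of 3. All 6 sgCtl libraries lie above all 12 KD libraries for each gene, and RTKN2 with sgXIST7 (0.526 to 1.48 CPM) lies above RTKN2 with sgXIST9 (0 to 0.227 CPM). The genes were chosen by the gap between sgCtl and KD libraries in normoxia.

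The same genes were then read in hypoxia, in libraries that the choice of genes did not use. These libraries came from clonal cells of the same guides, so they are not independent of the choice. SEMA3D had 386, 482 and 895 counts with sgCtl, 3, 1 and 1 with sgXIST7, and 1, 1 and 0 with sgXIST9. ZBTB18 had 1821, 3033 and 1562 counts with sgCtl, 5, 3 and 1 with sgXIST7, and 2, 7 and 2 with sgXIST9. KCNK2 had 1705, 2498 and 1987 counts with sgCtl, 2, 5 and 5 with sgXIST7, and 1, 4 and 2 with sgXIST9. These 3 genes stayed at 7 counts or fewer in every hypoxic KD library. CCDC102B had 1853, 2362 and 2188 counts with sgCtl, 4, 3 and 2 with sgXIST7, and 9, 4 and 6 with sgXIST9. RTKN2 had 202, 256 and 212 counts with sgCtl, 11, 17 and 16 with sgXIST7, and 1, 5 and 1 with sgXIST9. Here too the sgCtl and KD groups did not overlap for any of the 5 genes. The share of all genes without overlap is not given here, so this carries no weight by itself.

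With sgXIST7 in hypoxia, log2 fold changes against sgCtl were -8.74 (SE 0.61) for SEMA3D, -9.62 (SE 0.29) for ZBTB18, -9.21 (SE 0.35) for KCNK2, -9.69 (SE 0.30) for CCDC102B and -4.12 (SE 0.35) for RTKN2. Their adjusted p from edgeR's quasi-likelihood test, Benjamini-Hochberg over 14938 genes, ran from 3.3e-13 for ZBTB18 to 1.6e-07 for RTKN2. With sgXIST9 the log2 fold changes were -10.03 (SE 0.67) for SEMA3D, -9.46 (SE 0.28) for ZBTB18, -10.09 (SE 0.37) for KCNK2, -8.77 (SE 0.27) for CCDC102B and -6.89 (SE 0.45) for RTKN2, with edgeR adjusted p from 2.1e-13 for ZBTB18 to 8.4e-09 for SEMA3D. Both comparisons share the same sgCtl libraries. The exact two-sided permutation test of 3 against 3 libraries gave p = 0.1 for each gene and clone, the smallest p this design allows. A call here is an adjusted p under 0.01 with a log2 fold change beyond 1. All 5 genes were called lower in both clones, against 6.19% of all genes tested called lower with sgXIST7 and 3.39% with sgXIST9 (14% and 9.53% in either direction). SEMA3D, ZBTB18, KCNK2 and CCDC102B passed the filter on low counts through the sgCtl libraries alone. All 5 genes were chosen as near 0 in the KD clones in normoxia, so this count by itself supports nothing. It was 5 in both clones also without replicate 3 of the hypoxia groups. Each SE is the size of the fitted log2 fold change over the square root of the F of its quasi-likelihood test. Fitted fold changes of genes with so few KD counts depend on the prior count, and so do these SE. The share left is the plainer measure.

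The share left was taken as summed KD counts over summed sgCtl counts, each per effective library size, with 95% exact intervals that cover counting error only. In normoxia, SEMA3D kept 0.0306% (0.00370 to 0.110) of its sgCtl level with sgXIST7 and 0.0168% (0.000425 to 0.0935) with sgXIST9. ZBTB18 kept 0.0563% and 0.0495%, and KCNK2 0.0740% and 0.0650%, in the same order. CCDC102B kept 0.333% (0.226 to 0.472) with sgXIST7 and 0.295% (0.190 to 0.435) with sgXIST9, above the upper bounds of SEMA3D, ZBTB18 and KCNK2 in the same clone. RTKN2 kept 2.81% (2.20 to 3.55) with sgXIST7 but 0.0418% (0.00106 to 0.233) with sgXIST9. In hypoxia, ZBTB18 kept 0.122% with sgXIST7 and 0.136% with sgXIST9, SEMA3D 0.246% and 0.0900%, KCNK2 0.168% and 0.0897%, and CCDC102B 0.122% and 0.235%. RTKN2 kept 5.71% (4.11 to 7.75) with sgXIST7 and 0.828% (0.332 to 1.72) with sgXIST9. No gene of the 5 regained more than 7.75% of its sgCtl level in hypoxia at the upper bound of its interval. XIST, by contrast, kept 12.4% (11.7 to 13.1) with sgXIST9 and 0.0507% with sgXIST7 in hypoxia. The clone with more XIST left was thus the one with less RTKN2, but a single pair of clones cannot show a relation.

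**Figure D2:**
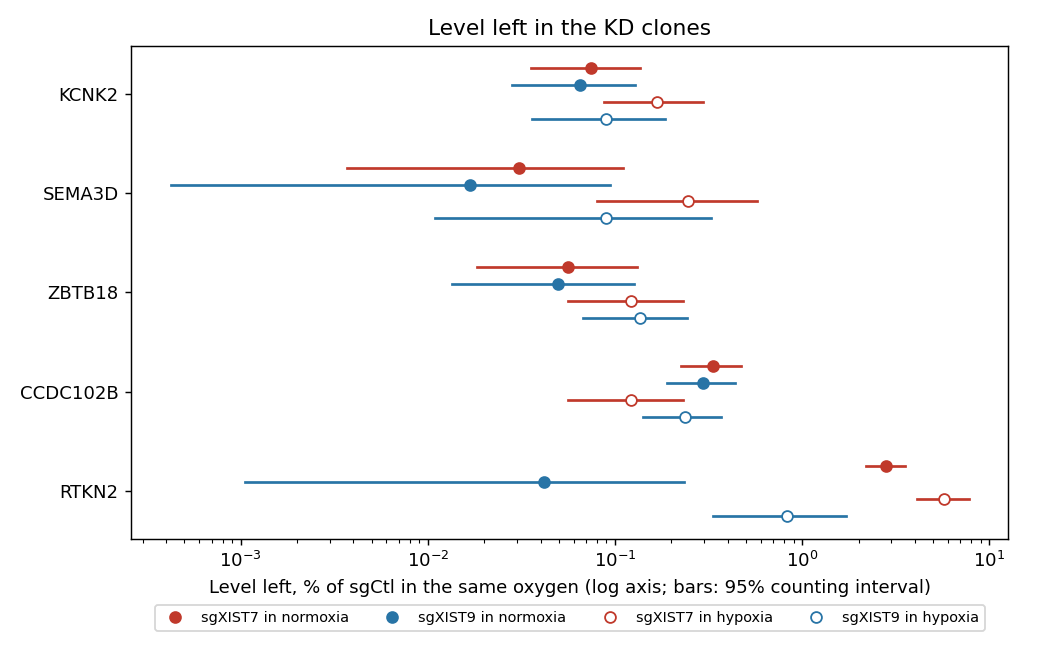
The x axis gives the level left in a KD clone as % of sgCtl in the same oxygen (log axis), with 1 row per gene. Points are sums over 3 libraries (filled for normoxia, open for hypoxia, red for sgXIST7, blue for sgXIST9) and bars are 95% counting intervals. The sgXIST7 points of RTKN2, 2.81% and 5.71%, lie to the right of all others.

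Between the clones, the level of RTKN2 in hypoxia was 0.892 ± 0.441 CPM with sgXIST7 and 0.112 ± 0.10 CPM with sgXIST9 (SD, n = 3). The groups did not overlap, though the share of all genes without overlap is not given here. The log2 difference was 2.77 (SE 0.58, 95% interval 1.64 to 3.90) with an edgeR adjusted p of 0.0033, and the exact permutation p was 0.1. It was the 1 gene of the 5 called between the clones, where 4.46% of all genes tested were called in either direction and 2.06% higher with sgXIST7. The call was lost without sgXIST7 replicate 2, sgXIST7 replicate 3, sgXIST9 replicate 1 or replicate 3 of all hypoxia groups (edgeR adjusted p 0.0111, 0.0157, 0.0245 and 0.0123), with the difference still 2.21 or more on the log2 scale. In normoxia the difference was 5.61 (SE 0.75), given as a description. For the other genes the hypoxia interval included 0, with a log2 difference of 1.29 (-2.02 to 4.60) for SEMA3D, 0.88 (-0.63 to 2.40) for KCNK2, -0.15 (-1.31 to 1.00) for ZBTB18 and -0.92 (-1.98 to 0.14) for CCDC102B. Their edgeR adjusted p were 0.64, 0.46, 0.89 and 0.26. With at most 9 counts in a library, a several-fold difference between the clones was not detectable for SEMA3D or KCNK2.

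The control cells show how the genes respond to low oxygen when they are expressed. These values include the normoxia libraries used in the choice and carry no test. ZBTB18 was at 114, 151 and 138 CPM in sgCtl hypoxia, a log2 difference from normoxia of -0.04 (SE 0.16), and CCDC102B at 116, 117 and 194 CPM, a difference of -0.03 (SE 0.16). Both overlapped their normoxia levels. KCNK2 was at 107, 124 and 176 CPM in hypoxia, a log2 difference of -0.63 (SE 0.20). RTKN2 was at 12.6, 12.7 and 18.8 CPM, a difference of -1.50 (SE 0.28). For KCNK2, RTKN2 and SEMA3D all sgCtl hypoxia libraries lay below all sgCtl normoxia libraries. The share of all genes without overlap is not given for any comparison here. SEMA3D was at 24.1, 23.9 and 79.3 CPM, a log2 difference of -1.28 (SE 0.33) that became -2.09 without sgCtl hypoxia replicate 3. In that library SEMA3D was 3.30 times the mean of replicates 1 and 2, CCDC102B 1.66, KCNK2 1.53, RTKN2 1.48 and ZBTB18 1.05 times. The summed level of the 6 hypoxia genes was 1146 CPM in the same library and 872 and 966 CPM in replicates 1 and 2. In the KD clones, CCDC102B with sgXIST7 was at 0.477 ± 0.114 CPM in normoxia and 0.167 ± 0.0281 CPM in hypoxia, a log2 difference of -1.51 (SE 0.49), without overlap. RTKN2 with sgXIST9 was at 0.0177 ± 0.0307 CPM in normoxia and 0.112 ± 0.10 CPM in hypoxia, with overlap.

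The same pattern was counted over the whole table. Of 12736 genes with a mean of at least 1 CPM in sgCtl normoxia, 60 (0.471%) were at 5% or less of that mean in both KD clones in normoxia. The 5 genes were ranked 2 (KCNK2), 3 (CCDC102B), 4 (ZBTB18), 5 (SEMA3D) and 9 (RTKN2) among the 60 by sgCtl level. Just inside the limit were LINC01447 (4.98% left in the higher clone) and INHBA (4.76%), and just outside were KCNS3 (5.18%) and SLCO3A1 (5.37%). The 60 genes were spread over 20 chromosomes, with 0 on the X. In hypoxia, 37 of the 60 were again at 5% or less of sgCtl in both clones. They included SEMA3D, ZBTB18, KCNK2 and CCDC102B but not RTKN2, whose mean CPM with sgXIST7 was 6.07% of sgCtl. ADM, which encodes the peptide adrenomedullin and ranked 1 by level, did not keep the pattern. ADM was at 287 ± 33.3 CPM in sgCtl normoxia and 8.14 ± 2.02 with sgXIST7, but 324 ± 56.7 and 188 ± 47.8 CPM in hypoxia, so that 58.2% was left. ARID5B, a DNA-binding coregulator ranked 7, kept at most 0.677% in normoxia and 0.494% in hypoxia.

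**Figure D3:**
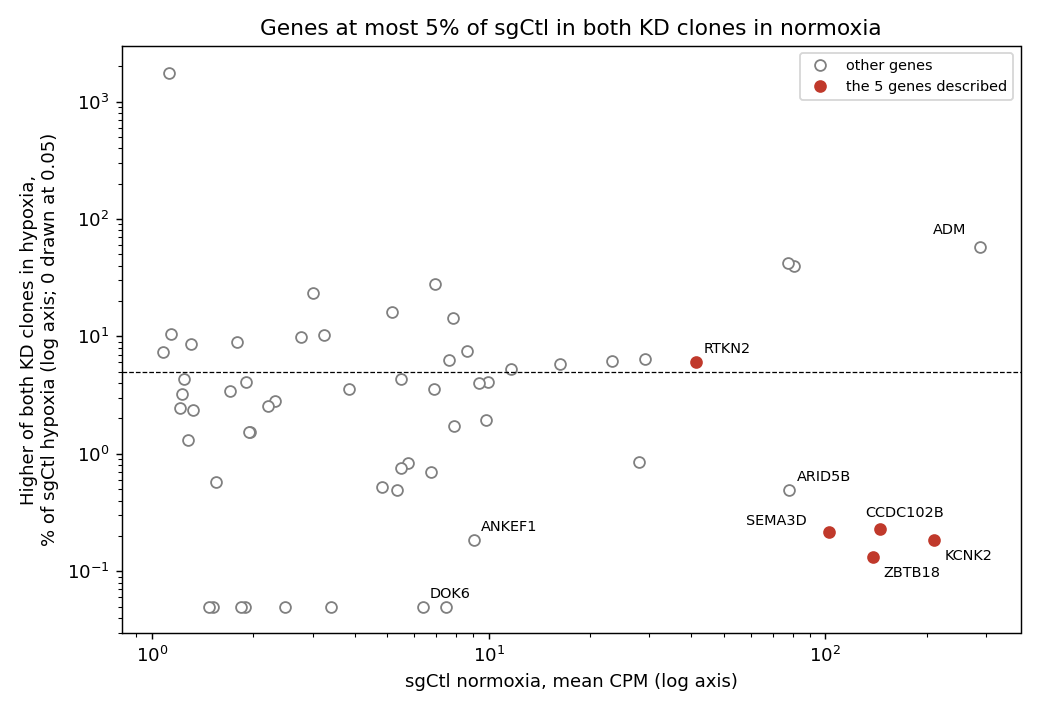
Each point is 1 of the 60 genes, with mean CPM in sgCtl normoxia on the x axis and the level left in hypoxia in the higher KD clone, as % of sgCtl hypoxia, on the y axis (both log, values of 0 drawn at 0.05). The dashed line is 5%, with KCNK2, ZBTB18, SEMA3D and CCDC102B (red) between 0.133% and 0.227%, RTKN2 at 6.07% and ADM at 58.2%.

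The tested genes whose levels ran most like those of each member over the 18 libraries were ranked by Pearson's r of log2 CPM. CABCOCO1, which encodes a coiled-coil calcium-binding protein, was among the nearest 3 for SEMA3D (r = 0.992), ZBTB18 (0.992), KCNK2 (0.992) and CCDC102B (0.988). BANK1, a B-cell scaffold protein, was among them for SEMA3D (0.984), ZBTB18 (0.992) and KCNK2 (0.985), and ANKEF1 for ZBTB18 (0.989) and CCDC102B (0.987). DOK6, an adaptor of receptor tyrosine kinases, completed the list for SEMA3D (0.986), and ARID5B those for KCNK2 (0.990) and CCDC102B (0.989). The nearest to RTKN2 were TSHZ2 (0.977), PTPRM (0.972) and CRISPLD1 (0.966). PTPRM, a receptor tyrosine phosphatase, was at 6.48 CPM in sgCtl normoxia, 0.691 with sgXIST7 and 0.0503 with sgXIST9, the order of RTKN2. These r mostly restate the gap between sgCtl and KD libraries. Over the 6 sgCtl libraries alone, r was 0.977 between SEMA3D and KCNK2 and 0.933 between KCNK2 and RTKN2, but 0.286 between SEMA3D and ZBTB18 and 0.256 between ZBTB18 and CCDC102B.

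Genes beside the 5 on the chromosome were examined next. Within 1 Mb lay 42 genes, 26 of them tested. With sgXIST7 in normoxia 10 of the 26 were called lower and with sgXIST9 9 of the 26, where 3.09% and 3.77% of all genes were called lower (7.76% and 7.7% in either direction). In hypoxia 7 and 8 of the 26 were called lower, against 6.19% and 3.39%. edgeR called none of the 26 higher in these comparisons. The 26 lie in 5 stretches and are not independent. RTKN2 had the most, with 5 of its 7 tested neighbours called lower in both clones in normoxia and 3 of 7 in hypoxia.

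On either side of RTKN2, ARID5B lay 96142 bases and ZNF365, a zinc finger gene, 105313 bases away. ARID5B was at 78.1 CPM in sgCtl normoxia, 0.528 with sgXIST7 and 0.266 with sgXIST9, and 0.524% (0.331 to 0.787) and 0.291% (0.159 to 0.488) of its level was left in hypoxia. ZNF365 repeated the clone difference of RTKN2 in normoxia, with 54 counts over the sgXIST7 libraries and 0 over the sgXIST9 libraries, against 367 over the sgCtl libraries. CABCOCO1, 426680 bases from RTKN2, had 216 counts over the sgCtl normoxia libraries, 0 with sgXIST7 and 1 with sgXIST9. Named after their values were seen, EGR2 and JMJD1C on the ZNF365 side, 543152 and 898377 bases away, were called lower in both clones in normoxia (log2 -4.77 and -1.42 with sgXIST7) but in neither clone in hypoxia (-1.11 and -0.92 with sgXIST7). Without replicate 3 of the hypoxia groups EGR2 was called lower there too (-1.69 with sgXIST7 and -2.26 with sgXIST9), and JMJD1C with sgXIST7 was without sgCtl replicate 1 (-1.03).

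CCDC102B starts 43 bases from TMX3, which encodes a disulfide isomerase of the endoplasmic reticulum and runs the other way. TMX3 was lower but far from off, at 183 CPM in sgCtl normoxia, 34.6 with sgXIST7 and 36.6 with sgXIST9, which left 19.1% (18.2 to 20.0) and 20.1% (19.1 to 21.1). In hypoxia 36.6% and 32.1% were left. DOK6, 345699 bases away on the other side, had 291 counts over the sgCtl normoxia libraries and 0 in all 12 KD libraries. Against a floor of 3 counts per library, DOK6 was at least 44.8-fold lower with sgXIST7 and at least 40.8-fold lower with sgXIST9 in normoxia.

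Beside SEMA3D the only tested gene was SEMA3A, another class 3 semaphorin, 800767 bases away. SEMA3A had 135 counts over the sgCtl normoxia libraries, 1 with sgXIST7 and 0 with sgXIST9, at least 19.3-fold lower with sgXIST9 against the same floor. Its level in sgCtl hypoxia was 0.493 CPM, and it was called lower there with sgXIST9 (log2 -4.39, SE 1.07, edgeR adjusted p 0.0062) but not with sgXIST7 (-2.55, SE 0.87, edgeR adjusted p 0.029). With 23 counts in sgCtl hypoxia these calls turned on single libraries, since the sgXIST9 call was lost without sgCtl replicate 2 or any 1 sgXIST9 library (edgeR adjusted p 0.0125 to 0.0316) and SEMA3A was called with sgXIST7 without its replicate 3 (-6.21). Beside ZBTB18, ADSS2 at 351014 bases was not called, with log2 differences of -0.41 (SE 0.13) with sgXIST7 and -0.30 with sgXIST9 in normoxia. In hypoxia ADSS2 was at -0.48 and -0.89 (edgeR adjusted p 0.0061 and 5.6e-05) and missed a call by the fold limit only. The nearest tested neighbours of KCNK2, CENPF and KCTD3, 340971 and 330214 bases away, were not called in any KD comparison. Their log2 differences were all below 0 but inside the fold limit. KCTD3 had an edgeR adjusted p under 0.01 in each KD comparison except sgXIST7 in hypoxia (0.046). CENPF had one only with sgXIST9 in hypoxia (0.0020). CENPF was at 884, 702 and 605 CPM in normoxia with sgCtl, sgXIST7 and sgXIST9, and KCTD3 at 170, 132 and 126 CPM. Of the 5 tested neighbours of KCNK2 the 1 called was PROX1, a homeobox gene 964038 bases away and named after its values were seen. PROX1 was at 3.39 CPM in sgCtl hypoxia, 0.420 with sgXIST7 and 0.0758 with sgXIST9, and was called lower in hypoxia in both clones, with the sgXIST7 call lost without sgCtl replicate 2 or sgXIST7 replicate 1 (edgeR adjusted p 0.0145 and 0.0102).

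**Figure D4:**
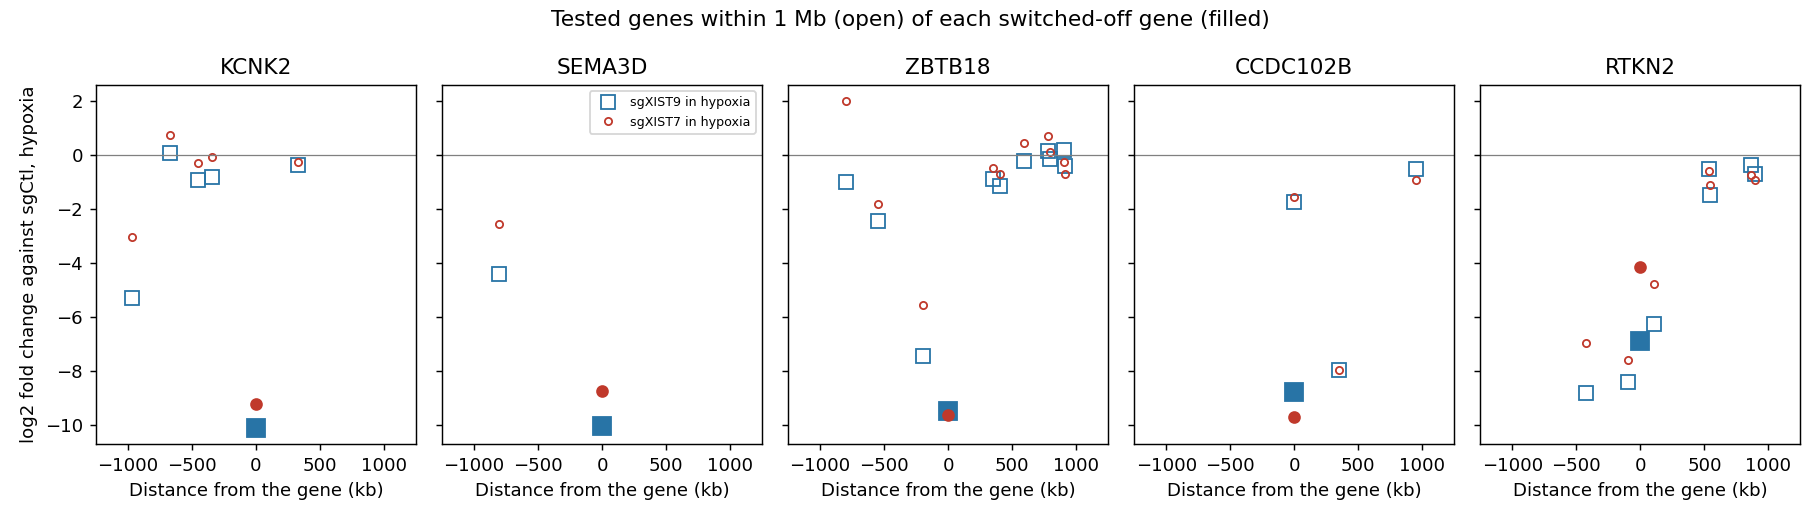
Each panel is 1 of the 5 genes (filled, at 0) with its tested neighbours within 1 Mb (open), plotted by distance in kb and by log2 fold change against sgCtl in hypoxia (red circles sgXIST7, blue squares sgXIST9). ARID5B (-7.60 and -8.41) and CABCOCO1 (-6.93 and -8.81) lie as low as RTKN2 or lower, while CENPF (-0.09 and -0.81) and KCTD3 (-0.24 and -0.35), next to KCNK2, lie above KCNK2 (-9.21 and -10.09).

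The ID genes, which encode inhibitors of basic helix-loop-helix factors, were examined as known targets of ZBTB18. Of a list of 7 (ID1 to ID4 and the corepressors CTBP1, CTBP2 and DNMT3A), 4 were called higher with sgXIST7 and with sgXIST9 in normoxia, 2 with sgXIST7 in hypoxia and 4 with sgXIST9 in hypoxia, and edgeR called 0 lower. An unadjusted p under 0.05 was reached by 4, 4, 5 and 6 of the 7, and DESeq2 called 4, 4, 3 and 4. The list was chosen with earlier results known and is not independent evidence. In the same order, 4.67%, 3.93%, 7.83% and 6.14% of all genes tested were called higher, and the list's medians were 1.88, 2.07, 1.20 and 2.32 on the log2 scale against -0.01 to -0.02 over all genes. The calls were on ID genes, and CTBP1, CTBP2 and DNMT3A were not called. ID1 was at 38.9 ± 10.9 CPM in sgCtl normoxia, 143 ± 34.8 with sgXIST7 (log2 1.88, SE 0.27, edgeR adjusted p 5.8e-05) and 163 ± 20.2 with sgXIST9 (2.07, SE 0.27). ID2 was at 5.40 ± 3.53 CPM with sgCtl, 52.5 ± 17.2 with sgXIST7 (3.29, SE 0.46) and 88.5 ± 11.7 with sgXIST9 (4.04, SE 0.46). ID3 was at 44.2 ± 20.3 CPM with sgCtl, 299 ± 55.7 with sgXIST7 (2.76, SE 0.40) and 583 ± 25.3 with sgXIST9 (3.72, SE 0.41). ID4 was at 4.85 ± 3.81 CPM with sgCtl, 43.8 ± 18.9 with sgXIST7 (3.19, SE 0.58) and 141 ± 6.82 with sgXIST9 (4.87, SE 0.61). The ID4 libraries ranged from 1.38 to 8.92 CPM with sgCtl and from 24.4 to 62.2 with sgXIST7. No KD library overlapped an sgCtl library for any ID gene in normoxia, though the share of all genes without overlap is not given here.

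In hypoxia the sgCtl level of the ID genes was lowest in replicate 3, the library that stood apart, at 23.04 CPM for ID3 against 85.2 and 80.9 in replicates 1 and 2. With all libraries ID1 and ID3 were called higher in both clones, with log2 differences of 1.91 (SE 0.27) and 1.43 (SE 0.38) with sgXIST7 and 2.56 (SE 0.28) and 2.67 (SE 0.39) with sgXIST9. ID2 and ID4 passed with sgXIST9 (2.32, SE 0.41, and 3.61, SE 0.55) and missed the threshold with sgXIST7 (1.20, SE 0.40, edgeR adjusted p 0.023, and 1.65, SE 0.52, edgeR adjusted p 0.017). Without replicate 3 of the hypoxia groups, ID3 with sgXIST7 was no longer called (0.92, SE 0.35, edgeR adjusted p 0.0475), while ID1 with sgXIST7 (1.49) and the 4 ID genes with sgXIST9 (1.99 to 3.33) were. The ID3 call with sgXIST7 was also lost without sgCtl replicate 2 or any 1 sgXIST7 library except replicate 2 (edgeR adjusted p 0.0108 to 0.024). With all libraries edgeR called no ID gene between the clones in hypoxia, where 5 of the 7 list genes had an unadjusted p under 0.05 and DESeq2 called 1, and without replicate 3 edgeR called ID3 (-1.50, adjusted p 0.00982). ZBTB18 itself differed by -0.15 (SE 0.59) between those clones. Whether the level of ZBTB18 has a part in that of the ID genes was not tested.

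**Figure D5:**
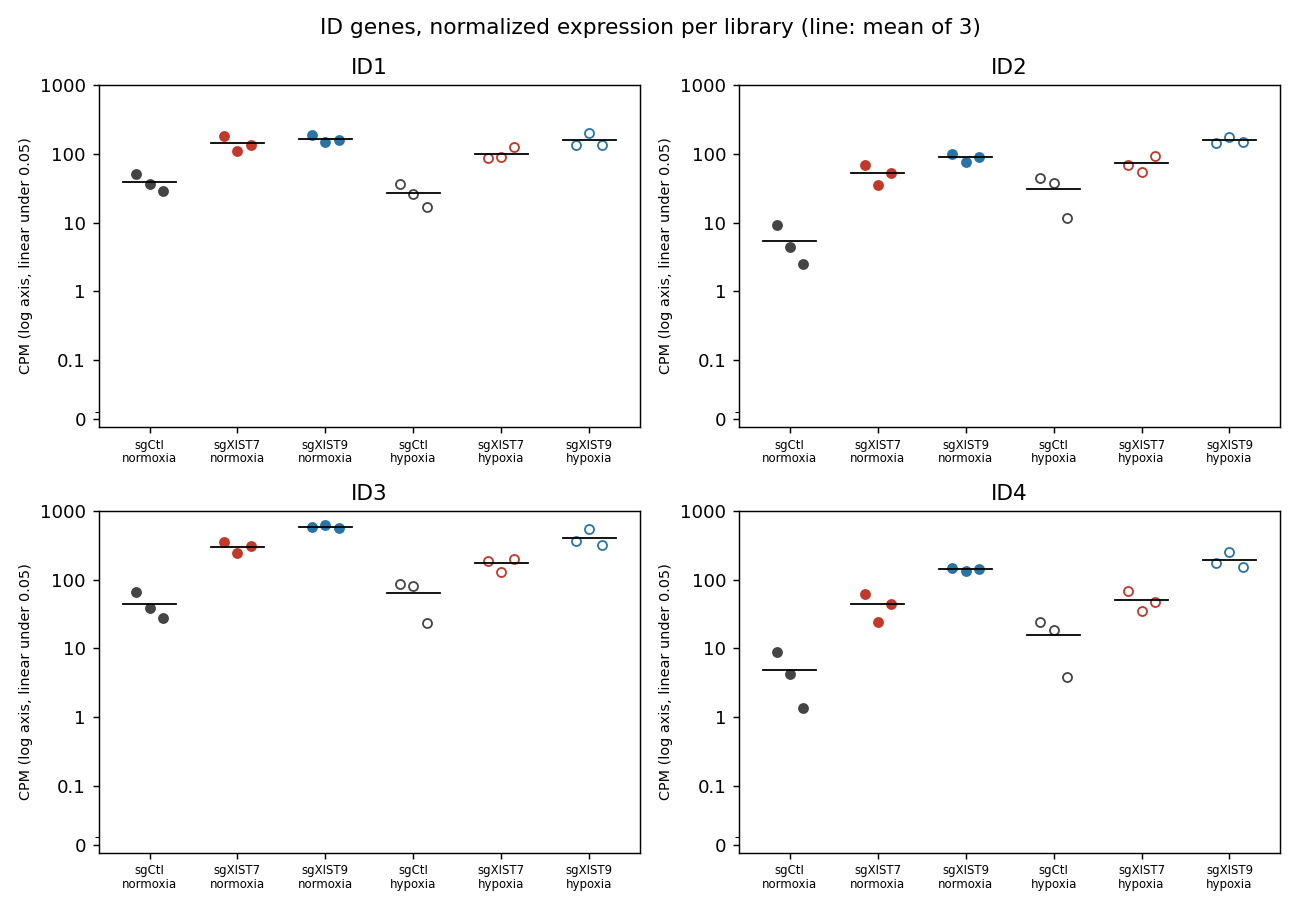
Each panel plots 1 ID gene, with CPM per library on a log axis (linear under 0.05) and the 6 groups along the x axis. Points are libraries and lines are means of 3. In normoxia all KD points lie above all sgCtl points, with ID3 at 44.2 CPM on average with sgCtl and 583 with sgXIST9.

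Of 13 genes of semaphorin signalling other than SEMA3D, 10 were tested. With sgXIST7 in normoxia 4 were called higher and 1 lower (4.67% and 3.09% of all genes), and with sgXIST9 1 higher and 2 lower (3.93% and 3.77%). In hypoxia 2 were called higher and 1 lower with sgXIST7 (7.83% and 6.19% of all genes), and 0 higher and 1 lower with sgXIST9 (6.14% and 3.39%, with 3 at an unadjusted p under 0.05, 2 called by DESeq2). In this order the list had medians of 0.22, -0.42, 0.28 and -0.06. NRP2, a neuropilin coreceptor, was at 1.47 ± 0.310 CPM in sgCtl normoxia, 79.8 ± 2.09 with sgXIST7 (log2 5.76, SE 0.38) and 2.06 ± 0.275 with sgXIST9. In hypoxia NRP2 also differed between the clones, with 99.9 ± 34.8 CPM with sgXIST7 and 1.99 ± 0.737 with sgXIST9 (log2 5.62, SE 0.36, edgeR adjusted p 1.3e-08). PLXND1, a plexin receptor, was called higher in both clones in normoxia (1.25, SE 0.22, and 1.27, SE 0.22) and at 0.74 and 0.77 in hypoxia was not. SEMA3B was called higher with sgXIST7 in hypoxia (3.18, SE 0.70), at 84.0 ± 54.2 CPM against 9.65 ± 10.8, a call lost without sgCtl replicate 1, sgCtl replicate 2 or sgXIST7 replicate 3 (edgeR adjusted p 0.0127, 0.0166 and 0.0129). Without replicate 3 of the hypoxia groups SEMA3B was called higher with sgXIST9 as well (log2 1.503).

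Of 14 other K2P channel genes, 4 were tested. In hypoxia KCNK6 was called higher with sgXIST7 (log2 3.46, SE 0.56) and with sgXIST9 (4.21, SE 0.55), from 0.192 ± 0.214 CPM with sgCtl to 2.18 ± 0.245 and 3.63 ± 1.46. KCNK5 was called lower with sgXIST7 in hypoxia (-1.87, SE 0.46), a call lost without sgCtl replicate 1 or 2 or sgXIST7 replicate 2 or 3 (edgeR adjusted p 0.0136 to 0.0391). With sgXIST9 KCNK5 was called lower only without replicate 3 of sgCtl hypoxia (-1.55) or of all hypoxia groups (-1.29). In normoxia 0 of the 4 were called in either clone by edgeR or DESeq2, with 1 and 0 at an unadjusted p under 0.05. With sgXIST7 and sgXIST9, edgeR called 7.76% and 7.7% of all genes in normoxia and 14% and 9.53% in hypoxia. Beside these shares, 0 of 4 in normoxia carries no weight by itself. The K2P list medians were 0.49 and 0.55 in normoxia and -0.54 and 0.22 in hypoxia. Of 8 other genes of the centrosome linker, all tested, 0 were called by edgeR or DESeq2 in the 4 KD comparisons. Beside the same shares of all genes, 0 of 8 carries no weight by itself. An unadjusted p under 0.05 was reached by 5, 3, 5 and 3 for sgXIST7 and sgXIST9 in normoxia and then in hypoxia. The share of all genes at that p is not given here for any list. The medians of the centrosome list lay between -0.16 and 0.14.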

How the data were processed

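RNA of 18 OVCAR3-KRAB libraries was depleted of ribosomal RNA and sequenced. Per the labels and the study's methods, reads were trimmed (Trimmomatic), checked (FastQC), aligned to hg38 with HISAT2 and counted per gene with featureCounts; versions and the strand setting are not given in the sources used here. The authors deposited raw counts per gene, 28279 lines, of which 2 broken lines were left out. Columns were matched to samples by their labels. Counts were filtered (filterByExpr, minimum 10 in a library and 15 in total), scaled by TMM and fitted in 1 model of 6 groups with edgeR 4.0.16 (R 4.3.3), robust quasi-likelihood, Benjamini-Hochberg over 14938 genes; 5 of 5 members passed. DESeq2 1.42.0, other scalings and filters, and left-out libraries were alternatives. Tested on simulated data for sgXIST7 against sgCtl in hypoxia (14631 genes), edgeR recovered 90 of 105 4-fold and 94 of 95 32-fold changes with 1 unchanged gene called. Members and lists were chosen with earlier results of these data known. Named genes were the members, XIST, up to 4 genes per list by calls and size, the 3 genes most correlated with each member, the nearest tested neighbours and the markers. Intervals on the share left cover counting error only. Those on log2 differences come from the SE of the edgeR fit, which includes the spread between replicate libraries. Promoters came from RefSeq. One neighbouring gene and one gene list are not reported here.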

Additional observations from a re-analysis of the deposited data

Results flagged for a closer look

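RTKN2 differed between the KD clones in hypoxia, with sgXIST7 above sgXIST9 by 2.77 on the log2 scale (SE 0.58, edgeR adjusted p 0.0033, higher in 3 of 3 sgXIST7 libraries than in any sgXIST9 library). It was brought up for a closer look because the effect of both guides on the same gene differed by a direct test. Leaving out 1 library or replicate 3 of all hypoxia groups gave adjusted p from 0.00184 to 0.0245, and the other settings 0.000133 to 0.0374. The 2 groups held 44 and 7 counts of RTKN2 in all, and guide and clone cannot be told apart. The share of all genes without overlap between these groups is not given here.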

How the results depend on the processing

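All 5 genes were called lower in hypoxia in both clones under every alternative run. They were chosen as near absent in the same clones in normoxia, so these calls are no independent support. With only the compared groups in the fit, the genes called were 1113 for sgXIST7 and 641 for sgXIST9 against sgCtl in hypoxia and 323 between the clones (2093, 1423 and 666 with all groups), and 0 of the 5 genes were called between the clones, where RTKN2 had an adjusted p of 0.0374. Leaving out 1 library gave 0 to 1 of the 5 called between the clones and 434 to 973 genes called; the lowest, 434, was without sgXIST7 hypoxia replicate 2. Against sgCtl in hypoxia it gave 1561 to 3015 genes for sgXIST7 and 1149 to 2000 for sgXIST9. Without replicate 3 of the hypoxia groups, an alternative chosen after seeing the data, 0 of the 5 were called between the clones and 2730, 1812 and 969 genes in these comparisons. The sign of the ZBTB18 difference between the clones in hypoxia turned without sgXIST7 replicate 2 (0.00031), sgXIST7 replicate 3 (0.026) or sgXIST9 replicate 2 (0.61). Over all left-out libraries it ran from -0.60 to 0.61, and the cause was not tested. The limits of 10% and of 2 CPM gave 85 and 41 genes with the pattern in place of 60. Replicate numbers were shared between groups, but same-numbered libraries correlated from -0.07 to 0.57 after group means were taken off, so they were read as sharing only a number; 16 of 18 libraries correlated best with their own number, a hint from the data. With the replicate number as a block, 5, 5 and 1 of the 5 genes were called in hypoxia and 2244, 1535 and 799 genes in all. In the KD libraries, where most counts of the 5 genes were under 10, depth limits any comparison between the clones.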
